A study of Rattus norvegicus with 21 samples.

Results

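NBTII-FGFR1 cells after 48 h of FGF1 were set against the same cells at 0 h, on 4 of the 21 arrays of the series, chosen by line and time from the sample titles: 2 arrays at 48 h and 2 at 0 h. NBTII is a rat bladder carcinoma line of epithelial type, and NBTII-FGFR1 is that line transfected with FGF receptor 1; the labels do not say which promoter drives the receptor or whether the line is 1 clone. The 48 h cells had received FGF1 at 20 ng/ml with heparin at 50 µl/ml, and the 0 h cells are called control cells in the labels. The groups it was compared with were NBTII-FGFR1 at 24 h (2 arrays) and NBTII at 48 h (2 arrays), both with FGF1 and heparin, and untransfected NBTII at 0 h (1 array). Since no array after 0 h lacks FGF1, the ligand, heparin and 48 h in culture cannot be told apart. The series text says that control cells were not duplicated, whereas 2 titles name NBTII-FGFR1 at 0 h, and the titles were followed.

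FGF1 binds FGF receptors together with heparan sulfate or heparin, and the receptors signal mainly through RAS and ERK to immediate-early transcription factors such as FOS and FOSL1, which form AP-1 dimers. The study follows an epithelial to mesenchymal transition, in which epithelial cells lose keratin filaments and junctions and gain motility, matrix proteases and mesenchymal filaments. Matrix metalloproteinases cleave collagen and other matrix proteins, and several of their genes are classical AP-1 targets.

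The 21 arrays had medians of 6.13 to 6.21 on the log2 scale of the authors' normalised signal, and the replicates of NBTII-FGFR1 correlated at r = 0.997 at 48 h and r = 0.995 at 0 h across probe sets. The library labelled 0 h replicate 1 stood apart at the transfected receptor's gene. Fgfr1 read 7.44 and 7.20 at 48 h, against 3.57 in that library and 5.92 in 0 h replicate 2, while the 10 NBTII arrays lay between 3.58 and 4.05. Igfbp5 read 4.53 and 4.36 at 48 h, against 7.51 in that library and 4.39 in 0 h replicate 2, while the 10 NBTII arrays lay between 5.72 and 9.89. By all probe sets that library correlated more with 0 h replicate 2 (r = 0.995) than with NBTII at 0 h (r = 0.992). The correlation of 0 h replicate 2 with NBTII at 0 h was lower (r = 0.989). At 43 probe sets the 0 h replicates differed by at least 1 log2 unit, and the 48 h replicates did so at 5. Among the other NBTII-FGFR1 arrays Fgfr1 was lowest, at 4.56, in 24 h replicate 1. Results were also computed without the library, and pairs of 0 h values below give that library first. The poly-A spike controls averaged 5.66 to 5.71 in the 48 h arrays and 6.13 to 6.27 in the 0 h arrays. They averaged 6.64 in NBTII at 0 h, and 5.33 to 5.72 in all arrays after 0 h of both lines. This offset separates 0 h from later times in both lines, and its part in the differences was not tested. Of 14 epithelial carcinoma markers 11 were measured, with log2 levels that summed to 86.4 to 87.0 at 48 h and 96.6 to 97.0 at 0 h. Krt14, Krt5, Jup, Dsp, Krt13 and Cdh1 were the 6 called lower, beside 11.4% of all genes. Cdh1 lost its call without the library labelled 0 h replicate 1. The differences of 2 of the 11 were above 0, up to 0.87, and were not called. Of 8 fibroblast, 6 endothelial and 15 leukocyte markers measured, none was called higher at 48 h and 2 were called lower, Cd14 and Fcer1g, both leukocyte genes that lost their call without the library labelled 0 h replicate 1. The summed log2 levels of the other lists were 32.1 to 32.9 at 48 h and 33.1 to 34.0 at 0 h for fibroblast, 25.9 at 48 h and 25.2 to 25.5 at 0 h for endothelial, and 69.4 at 48 h and 69.5 to 70.3 at 0 h for leukocyte markers. In these bulk RNA samples, fewer cells of a type and less RNA per cell cannot be told apart.

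After 48 h of FGF1, 25 of 36 genes of the unfolded protein and amino acid response were called higher, and 31 of 35 DNA replication genes, 26 of 31 mitotic genes and 29 of 35 ribosome biogenesis genes lower, while 3 metalloproteinases, Mmp10, Mmp13 and Mmp3, had the largest rises of single genes. In limma's fit over all 21 arrays with Benjamini-Hochberg adjustment, 3393 of 15866 probe sets passed an adjusted p of 0.05 (21.4%), with 1659 higher (10.5%) and 1734 lower (10.9%). At least 1 log2 unit separated the group means at 502 of the higher and 307 of the lower probe sets. The arrays of the 2 groups did not overlap at 63.3% of all probe sets. Without the library labelled 0 h replicate 1, 1097 probe sets were higher (6.91%) and 989 lower (6.23%), of which 1069 and 943 were among the first calls, and all 3393 kept their sign. With 1 probe set taken per gene, the one with the highest mean, 23.6% of 10411 genes were called, 12.3% higher and 11.4% lower (8.14% and 6.25% without that library), the groups lay apart at 66.0%, and the median difference of all genes was -0.03. The signs kept without that library come from fits that share the other arrays, so they do not bear on its label. Counts per list, with or without that library, are to be read beside these shares of genes called higher and lower. Below, "rose" and "fell" are used of genes that passed this test, values are log2 signals or log2 differences ± SE between 2 arrays and 2, and adjusted p-values are limma's. Nothing in the labels tells whether the replicates are separate cultures. The p-values therefore cover the spread of these arrays alone, which could be technical, and the number of arrays limits the precision.

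The 12 genes with the largest rises were led by 3 matrix metalloproteinases. Mmp10 (stromelysin 2) read 12.48 and 12.12 at 48 h, against 4.20 and 4.09 at 0 h. Mmp13 (collagenase 3) read 12.37 and 12.22 at 48 h, against 4.08 and 4.57 at 0 h. Mmp3 (stromelysin 1) read 10.94 and 10.35 at 48 h, against 3.57 and 3.79 at 0 h. All 3 genes were near the bottom of the scale in both 0 h arrays and among the brighter signals at 48 h. The differences were 8.15 ± 0.65 for Mmp10 (adjusted p = 2.24e-06), 7.97 ± 0.52 for Mmp13 (adjusted p = 6.6e-07) and 6.96 ± 0.44 for Mmp3 (adjusted p = 6.6e-07). Signals under an array's lower quartile (4.36 to 4.54) were not shown to exceed background here, so differences from such levels are best read as lower bounds.

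Of the other 9 genes, 3 encode secreted cytokines. Il23a, the p19 subunit of interleukin 23, read 11.69 and 11.14 at 48 h, against 6.08 and 5.94 at 0 h, a 42.4-fold rise (adjusted p = 9.06e-06). Csf3, the granulocyte colony-stimulating factor gene, read 9.13 and 8.08 at 48 h, against 4.89 and 4.89 at 0 h, and Il24, a cytokine of the interleukin 10 family, read 8.93 and 7.84 at 48 h, against 4.88 and 4.68 at 0 h. The 48 h replicates of Csf3 and Il24 lay about 1 log2 unit apart, which is small beside their differences from 0 h of 3.72 ± 0.40 and 3.60 ± 0.49. Capn8, a calcium-dependent protease of the calpain family, read 10.21 and 9.64 at 48 h, against 5.39 and 5.34 at 0 h, a 23.6-fold rise (adjusted p = 1.55e-06). Plin2, the coat protein of lipid droplets, read 9.19 and 8.71 at 48 h, against 4.92 and 4.88 at 0 h, a 16.6-fold rise (adjusted p = 4.01e-07). Abcb1a, the multidrug efflux pump P-glycoprotein, read 7.56 and 7.64 at 48 h, against 3.73 and 3.91 at 0 h, with both 0 h arrays below the lower quartile. Efhd1, a mitochondrial calcium-binding protein, rose by 3.74 ± 0.33, Asprv1, a protease of stratified epithelium, by 3.65 ± 0.40, and Tm4sf1, a tetraspan membrane protein, by 3.62 ± 0.31. In the plot of levels per array, the 48 h points of all 12 genes lie to the right of both 0 h points. The rule for naming these genes required this, and the groups lay apart at 63.3% of all probe sets. The second probe sets of Capn8, Plin2 and Abcb1a rose as well, by 3.61 ± 0.26, 3.21 ± 0.27 and 2.81 ± 0.24.

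**Figure D1:**
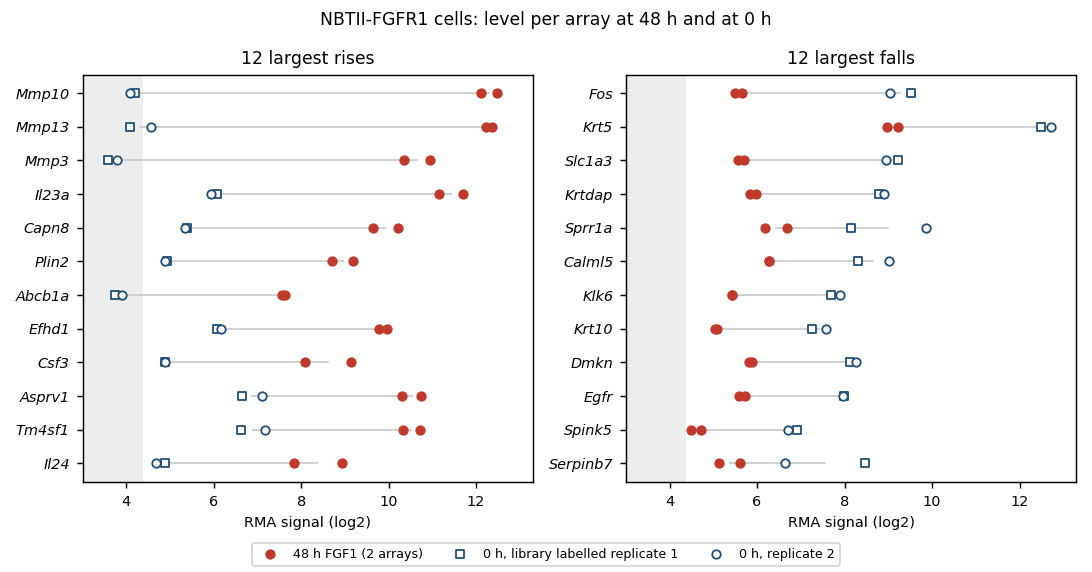
Normalised log2 signal (x axis) of the 12 genes with the largest rises and the 12 with the largest falls (rows) in NBTII-FGFR1 cells, with 48 h arrays as filled red circles, the library labelled 0 h replicate 1 as open squares and 0 h replicate 2 as open circles; grey lines join group means, and the grey band covers levels below the lowest lower quartile of any array (4.36). Only called genes whose 48 h and 0 h arrays do not overlap could be chosen. The differences run from 8.15 log2 units higher for Mmp10 to 3.69 lower for Fos.

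The leading metalloproteinase genes lie together on rat chromosome 8. In RefSeq's gene order on GRCr8, Mmp13, Mmp12, Mmp3 and Mmp10 fall within a run of 10 Mmp genes, of which 6 were measured. Mmp12, the macrophage elastase, read 7.36 and 6.93 at 48 h, against 4.59 and 4.29 at 0 h and rose by 2.7 ± 0.31 (adjusted p = 3.53e-05). Mmp8, next to Mmp10, differed by 0.15 ± 0.11 and Mmp7, nearer the far end of the run, by -0.07 ± 0.12, and neither passed the test. Of the measured genes outside the run, Dync2h1, a dynein heavy chain gene, fell by 0.53 ± 0.14 and Tmem123 by 1.10 ± 0.16, while Dcun1d5 (-0.28 ± 0.18) and Birc2 (-0.22 ± 0.24) did not pass. So 4 of the 6 measured genes of the run rose, and 0 of the 4 measured flanking genes did, beside 12.3% of all genes higher. The run was looked at because Mmp10, Mmp13 and Mmp3 led the rises, so their part of this count was fixed by the choice.

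**Figure D2:**
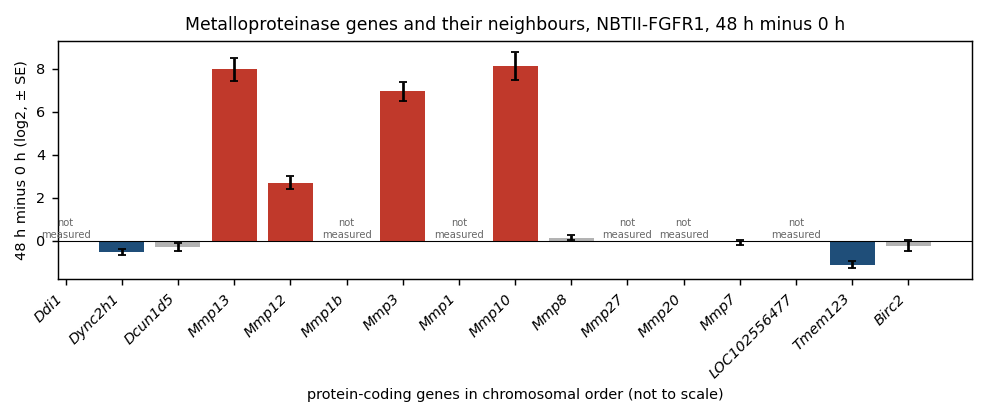
Difference between 48 h and 0 h in NBTII-FGFR1 cells (y axis, log2, bars with SE, 2 arrays against 2) for the metalloproteinase run and its neighbours in chromosomal order (x axis, not to scale); red bars passed the test as higher, blue as lower, grey did not pass. Mmp13, Mmp12, Mmp3 and Mmp10 stand at 7.97, 2.7, 6.96 and 8.15, while Mmp8 and Mmp7 lie near 0.

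The promoters of the 4 genes that rose are shown because each holds the AP-1 motif TGANTCA, searched on both strands. The sequences are RefSeq's on GRCr8, 250 bases before to 50 bases after the annotated start, all on the plus strand: chr8:12782579-12782878 for Mmp13, chr8:12866402-12866701 for Mmp12, chr8:12925031-12925330 for Mmp3 and chr8:12974457-12974756 for Mmp10. Capitals mark the AP-1 motif.
Mmp13: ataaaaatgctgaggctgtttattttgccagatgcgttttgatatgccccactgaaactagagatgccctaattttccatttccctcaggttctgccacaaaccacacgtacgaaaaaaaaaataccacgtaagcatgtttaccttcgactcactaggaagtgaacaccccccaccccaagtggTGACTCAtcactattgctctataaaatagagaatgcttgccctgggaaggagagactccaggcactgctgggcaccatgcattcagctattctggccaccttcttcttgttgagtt
Mmp12: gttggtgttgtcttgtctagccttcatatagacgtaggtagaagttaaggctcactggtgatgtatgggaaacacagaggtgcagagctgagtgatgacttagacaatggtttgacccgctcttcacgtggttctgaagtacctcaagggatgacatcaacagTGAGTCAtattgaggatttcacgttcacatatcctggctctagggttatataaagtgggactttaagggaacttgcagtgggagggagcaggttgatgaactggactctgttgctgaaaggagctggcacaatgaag
Mmp3: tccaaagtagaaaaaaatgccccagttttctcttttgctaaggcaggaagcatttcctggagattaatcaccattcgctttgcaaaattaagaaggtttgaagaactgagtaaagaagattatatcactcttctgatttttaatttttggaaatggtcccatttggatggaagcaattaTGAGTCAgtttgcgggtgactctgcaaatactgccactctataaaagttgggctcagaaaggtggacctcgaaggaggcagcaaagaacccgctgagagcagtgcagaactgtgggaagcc
Mmp10: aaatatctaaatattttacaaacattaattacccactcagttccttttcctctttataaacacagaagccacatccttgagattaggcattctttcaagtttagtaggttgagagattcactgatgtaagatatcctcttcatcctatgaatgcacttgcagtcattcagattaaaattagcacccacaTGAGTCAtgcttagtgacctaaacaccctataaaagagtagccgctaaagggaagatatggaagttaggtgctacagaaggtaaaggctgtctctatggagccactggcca
The motif's first base lies 66 bases before the start in Mmp13, 87 in Mmp12, 71 in Mmp3 and 61 in Mmp10, and each promoter also has a TATAAA between 32 and 47 bases before the start. Of the other 6 genes of the run, Mmp1, Mmp20 and Mmp7 hold the motif and Mmp1b, Mmp8 and Mmp27 do not. Over all 8610 tested genes with a promoter in the table, 5.46% hold it, against 7.24% of the 1078 called higher and 4.4% of the 1023 called lower, and it was found in 11.1% of the 323 genes that rose by at least 1 log2 unit and 7.78% of the 167 that fell by as much. Among the 12 largest rises 5 of 11 promoters hold it, and among the 12 largest falls likewise 5 of 11. The E-box CACCTG, which SNAI and ZEB repressors bind, was present in 17.7% of promoters called higher, 14.1% of those called lower and 18.1% of all. These shares describe letters in a fixed window.

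Other genes of extracellular proteolysis also changed, and their counts stand beside 12.3% of all genes higher and 11.4% lower. Of 20 metalloproteinase and related genes measured, 8 rose and 0 fell (median 0.42), and 7 rose without the library labelled 0 h replicate 1. Mmp24, a membrane-type enzyme, rose by 1.09 ± 0.19, with 1 of its 3 probe sets not passing (0.11 ± 0.15), Adam10, a shedding protease, by 0.89 ± 0.18, Mmp9, a gelatinase, by 1.42 ± 0.29, and Mmp14, the membrane-type collagenase, by 0.77 ± 0.21. Mmp9 was low at 48 h (5.59 and 4.6) and lay below the lower quartile at 0 h (3.66 and 3.69), and its call was lost without 48 h replicate 1. Its highest levels in the course were at 6 h, 8.75 and 8.35. Of 24 genes of protease inhibitors, cathepsins and the plasminogen system, 7 rose and 2 fell, also without that library. Serpine2, protease nexin 1, read 8.84 and 8.99 at 48 h, against 6.11 and 6.28 at 0 h and rose by 2.72 ± 0.21. Ctsl, the lysosomal protease cathepsin L, read 12.16 and 11.83 at 48 h, against 9.29 and 9.73 at 0 h and rose by 2.49 ± 0.23, Ctsd, cathepsin D, rose by 1.39 ± 0.18, and Timp2, a metalloproteinase inhibitor, by 0.77 ± 0.13, with a second probe set that did not pass (0.14 ± 0.14). Plaur, the urokinase receptor, read 9.52 and 9.46 at 48 h, against 6.91 and 7.22 at 0 h and rose by 2.42 ± 0.35, although its second probe set did not pass (0.12 ± 0.32). The second probe set read 3.83 to 4.10 in these arrays, below the lower quartile of each. Plau, urokinase itself, did not pass (-0.51 ± 0.25, adjusted p = 0.183). The falls were Klk6, a kallikrein protease of epidermis (-2.36 ± 0.32), and St14, matriptase (-0.89 ± 0.17).

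Fos had the largest fall. This subunit of AP-1 read 5.66 and 5.5 at 48 h, against 9.52 and 9.03 at 0 h, a 12.9-fold lower level (adjusted p = 2.14e-05). NBTII at 0 h read 4.90, below both arrays labelled NBTII-FGFR1 0 h, and from 6 h on the arrays of both lines lay between 4.77 and 6.87. A second Fos probe set did not pass (-0.11 ± 0.16).

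Among the other large falls, Krt5, the basal keratin, read 8.97 and 9.21 at 48 h, against 12.49 and 12.71 at 0 h, an 11.4-fold lower level (adjusted p = 1.31e-06). Krtdap, a keratinocyte differentiation protein, read 5.97 and 5.84 at 48 h, against 8.80 and 8.89 at 0 h, and Krt10, a suprabasal keratin, read 5.04 and 5.08 at 48 h, against 7.26 and 7.57 at 0 h. Sprr1a, a cornified envelope precursor, read 6.17 and 6.67 at 48 h, against 8.15 and 9.85 at 0 h, with the 0 h arrays far apart; it passed narrowly (adjusted p = 0.0493) and did not without either 48 h array, without 0 h replicate 2, with the replicate number as a block or with a robust eBayes fit. Differences for the calmodulin-like Calml5 (-2.38 ± 0.38), the secreted epidermal protein Dmkn (-2.34 ± 0.44) and the protease inhibitor Spink5 (-2.20 ± 0.43) were of the same order. Serpinb7, another protease inhibitor, read 5.13 and 5.62 at 48 h, against 8.46 and 6.64 at 0 h, and its difference was -1.26 without the library labelled 0 h replicate 1 (adjusted p = 0.199); the call was also lost without 48 h replicate 1. Slc1a3, a glutamate transporter, read 5.70 and 5.56 at 48 h, against 9.23 and 8.96 at 0 h, with 2 of its 3 probe sets lower and 1 higher (0.60 ± 0.13). The higher one read 4.45 and 4.37 at 48 h, against 3.81 and 3.81 at 0 h, near or below the arrays' lower quartiles. Egfr, the EGF receptor gene, read 5.71 and 5.59 at 48 h, against 7.98 and 7.97 at 0 h, and its other probe set did not pass (-0.14 ± 0.14). That probe set read 3.40 to 3.69 in these arrays, below the lower quartile of each.

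Of 12 keratins measured, 6 fell and 0 rose (median -1.10), and 6 fell without the library labelled 0 h replicate 1, with Krt4 called lower in place of Krt15. Krt14, the partner of Krt5 in basal filaments, read 11.76 and 11.90 at 48 h, against 13.70 and 13.92 at 0 h and remained bright (difference -1.98 ± 0.13, adjusted p = 6.6e-07). Krt13 fell as well (-1.95 ± 0.29), as did Krt1 (-1.66 ± 0.26) and Krt15 (-1.84 ± 0.50), the last losing its call when 48 h replicate 2 or either 0 h array was left out (adjusted p = 0.0961 without the library labelled 0 h replicate 1). The simple-epithelial keratins Krt8 (-0.37 ± 0.28) and Krt18 (0.87 ± 0.59) did not pass. Among 19 squamous and urothelial differentiation genes, 7 fell and 3 rose. These counts, like those of the keratins, stand beside 12.3% of all genes higher and 11.4% lower. The rises were Asprv1, Lcn2, a secreted siderophore-binding protein (1.87 ± 0.27), and Tgm1, the transglutaminase that cross-links the cornified envelope (1.85 ± 0.31), so the list did not move one way.

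Junction genes split. Of 11 desmosome and hemidesmosome genes, 5 fell and 3 rose. Dsp, desmoplakin, read 10.39 and 10.53 at 48 h, against 11.46 and 11.49 at 0 h and fell by 1.01 ± 0.15, and Jup, plakoglobin, read 10.02 and 10.07 at 48 h, against 10.94 and 11 at 0 h and fell by 0.92 ± 0.13. Evpl (-0.87 ± 0.23), Perp (-0.49 ± 0.16) and Plec (-0.68 ± 0.23) were the other falls. Lama3, the laminin-332 alpha chain, read 10.50 and 10.09 at 48 h, against 8.95 and 9.0 at 0 h and rose by 1.32 ± 0.23, with Dsc2, a desmosomal cadherin (0.70 ± 0.20), and the tetraspanin Cd151 (0.45 ± 0.10). Of 20 adherens and tight junction genes, 3 fell and 2 rose, and 1 fell and 2 rose without the library labelled 0 h replicate 1. Cdh1, E-cadherin, read 8.09 and 7.80 at 48 h, against 9.11 and 8.50 at 0 h. The 48 h arrays were both below both 0 h arrays, and the groups lay apart at 66.0% of all genes. The difference of -0.86 ± 0.25 (adjusted p = 0.0216) was -0.55 without that library. The call was lost there and also without either 48 h array. Amotl2, an angiomotin-like junction protein, fell by 2.12 ± 0.30, and Ctnna1, alpha-catenin, rose by 0.93 ± 0.12.

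The mesenchymal list changed little, and its counts stand beside 12.3% of all genes higher and 11.4% lower. Of 38 genes of mesenchymal cells and matrix, 3 rose and 2 fell (median -0.07), and 2 and 1 did so without the library labelled 0 h replicate 1. Cd44, a hyaluronan receptor, read 11.82 and 11.67 at 48 h, against 10.11 and 10.27 at 0 h and rose by 1.55 ± 0.16, and Spp1, osteopontin, read 7.31 and 7.55 at 48 h, against 5.32 and 5.30 at 0 h and rose by 2.12 ± 0.34. Vim, vimentin, read 8.47 and 8.80 at 48 h, against 5.41 and 7.55 at 0 h, so that the library labelled 0 h replicate 1 was the lowest by far. Its rise of 2.16 ± 0.72 (adjusted p = 0.045) was 1.09 without that library (adjusted p = 0.45), and was not called without either 48 h array. At 24 h Vim read 9.82 and 9.81, above both 48 h arrays. Col5a2, a fibrillar collagen, and Tnc, tenascin C, fell by 1.30 ± 0.33 and 1.13 ± 0.30. Both lost their call without either 48 h array, Col5a2 also without that library (adjusted p = 0.106) and Tnc also without 0 h replicate 2. Fn1, fibronectin, differed by -0.39 ± 0.27 (adjusted p = 0.366, 95% interval -0.96 to 0.18) and did not pass.

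Of 24 transition regulators, 3 rose and 3 fell, shares near those of all genes (12.3% higher, 11.4% lower). Zeb1, a repressor of E-cadherin, read 7.52 and 7.47 at 48 h, against 6.46 and 6.25 at 0 h and rose by 1.15 ± 0.18, Runx1 rose by 1.05 ± 0.19 and the chromatin protein Hmga2 by 1.20 ± 0.24. Id1 and Id4, inhibitors of basic helix-loop-helix factors, fell by 1.83 ± 0.27 and 1.08 ± 0.25, and Klf4, an epithelial transcription factor, by 0.45 ± 0.11. Snai1, the Snail repressor, differed by -0.07 ± 0.16 (95% interval -0.40 to 0.27), and Snai2 was not measured by a probe set with 1 symbol.

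Actin and motility genes changed in both directions, from -1.39 to 1.76 (median 0.14), and 30 of them did not pass. Over all genes 12.3% were higher and 11.4% lower. Of 41 genes of integrins, focal adhesion and actin, 9 rose and 2 fell, also without the library labelled 0 h replicate 1. Tmsb4x, the actin monomer-binding thymosin beta 4, read 12.06 and 11.95 at 48 h, against 10.27 and 10.61 at 0 h and rose by 1.56 ± 0.14 (adjusted p = 3.9e-06). The GTPase Rhoc rose by 1.32 ± 0.14, the Arp2/3 subunit Arpc1b by 1.17 ± 0.14 and Msn, moesin, which links actin to the membrane, by 1.04 ± 0.14. For these genes the 48 h and 0 h arrays did not overlap, as was so at 66.0% of all genes.

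Receptor and feedback genes of the FGF pathway changed in both directions, 9 higher and 5 lower of 26 measured. Over all genes 12.3% were higher and 11.4% lower. Both counts were smaller without the library labelled 0 h replicate 1. The transfected receptor's gene, Fgfr1, rose by 2.57 ± 0.57 over the labelled 0 h arrays (adjusted p = 0.00414) and by 1.40 without that library (adjusted p = 0.0648), and its second probe set did not pass (0.22 ± 0.11). Fgfr2, an epithelial receptor of the family, read 6.33 and 6.36 at 48 h, against 8.4 and 8.52 at 0 h and fell by 2.12 ± 0.29. Of its 5 probe sets, 3 fell and 2 did not pass. Spry2, an inhibitor of receptor tyrosine kinase signalling, read 7.78 and 7.72 at 48 h, against 6.07 and 6.30 at 0 h and rose by 1.56 ± 0.13 (adjusted p = 3.01e-06). Errfi1, an inhibitor of the EGF receptor, rose by 2.23 ± 0.31 and Sdc1, a heparan sulfate proteoglycan that can act as FGF coreceptor, by 0.89 ± 0.11. Sdc4, a proteoglycan of the same family, went the other way (-0.91 ± 0.18, adjusted p = 0.00203). Dusp6, the ERK phosphatase, rose by 0.98 ± 0.14 at its brightest probe set, with 1 further probe set higher (0.80 ± 0.22) and 1 lower (-0.75 ± 0.22).

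Of 38 immediate-early genes, 8 rose and 7 fell, beside 12.3% of all genes higher and 11.4% lower. Fosl1, which encodes the AP-1 subunit FRA1, read 10.43 and 10.45 at 48 h, against 9.01 and 9.28 at 0 h and rose by 1.29 ± 0.19, opposite in direction to Fos. Ier3 read 12.64 and 12.53 at 48 h, against 10.40 and 10.53 at 0 h and rose by 2.12 ± 0.22, while the serum response factor gene Srf fell by 1.04 ± 0.19, with a second probe set that did not pass (-0.26 ± 0.14). Egr1 read 8.04 and 8.05 at 48 h, against 9.79 and 9.63 at 0 h, a difference of -1.67 ± 0.45 (adjusted p = 0.0156) that lost its call when any 1 of the 4 arrays was left out (adjusted p = 0.093 without the library labelled 0 h replicate 1). Like Fos, it was lower in NBTII at 0 h (6.71) than in either array labelled NBTII-FGFR1 0 h.

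Among 44 growth factor and receptor genes, 10 rose and 2 fell, and 5 and 2 did so without the library labelled 0 h replicate 1. The shares of all genes were 12.3% higher and 11.4% lower. Tgfa, an EGF receptor ligand, read 7.78 and 8.01 at 48 h, against 6.77 and 6.87 at 0 h and rose by 1.07 ± 0.12. The vascular growth factors Vegfa and Vegfb rose by 1.5 ± 0.19 and 1.21 ± 0.15. Of 36 chemokines, cytokines and NF-kB targets, 12 rose, 0 fell and 24 did not pass (median 0.25), with 10 higher without that library. Ptgs2, the inducible cyclooxygenase, read 10.64 and 10.45 at 48 h, against 8.50 and 8.15 at 0 h and rose by 2.22 ± 0.25. Il1a, interleukin 1 alpha, read 8.19 and 7.78 at 48 h, against 5.46 and 5.15 at 0 h and rose by 2.68 ± 0.35 (adjusted p = 9.31e-05), and its second probe set rose by 2.39 ± 0.41.

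Genes of cell division and growth fell nearly throughout their lists, beside 11.4% of all genes lower. Of 35 DNA replication genes, 31 fell and 0 rose (median -0.91), with 23 lower without the library labelled 0 h replicate 1. Pole, the catalytic subunit of DNA polymerase epsilon, read 4.95 and 5.14 at 48 h, against 6.63 and 6.33 at 0 h and fell by 1.44 ± 0.15. Prim1, a primase subunit, fell by 1.33 ± 0.16, the helicase subunit Mcm7 by 1.02 ± 0.12 (10.35 and 10.58 at 48 h, against 11.48 and 11.48 at 0 h) and the sliding clamp Pcna by 0.95 ± 0.11. Of 31 mitotic genes, 26 fell and 0 rose (median -0.77), with 21 lower without that library. Ccnb2, cyclin B2, read 8.81 and 8.86 at 48 h, against 9.95 and 10.10 at 0 h and fell by 1.19 ± 0.13, and the condensin subunit Ncapd2, the kinase Aurkb and separase, Espl1, fell by 1.35 ± 0.17, 1.03 ± 0.13 and 1.08 ± 0.15. The 48 h and 0 h arrays did not overlap for these genes, as was so at 66.0% of all genes.

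Of 35 ribosome biogenesis and growth genes, 29 fell and 1 rose (median -0.63), with 17 lower without the library labelled 0 h replicate 1. Cad, the pyrimidine synthesis enzyme, read 7.6 and 7.58 at 48 h, against 9.03 and 9.14 at 0 h and fell by 1.5 ± 0.16, fibrillarin, Fbl, fell by 1.08 ± 0.13 and the assembly factor Rrs1 by 1.35 ± 0.17. The exception was Odc1, ornithine decarboxylase of polyamine synthesis, which read 13 and 12.96 at 48 h, against 11.51 and 11.62 at 0 h and rose by 1.41 ± 0.15. The list of p53 targets and inhibitors of the cycle had 9 rises and 3 falls in 22, beside 12.3% of all genes higher and 11.4% lower. Cdkn2b rose by 0.88 ± 0.12, Mdm2 by 1.08 ± 0.17 and cyclin D1, Ccnd1, a promoter of the cell cycle, by 1.24 ± 0.18, while Cdkn2c fell by 0.83 ± 0.15.

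**Figure D3:**
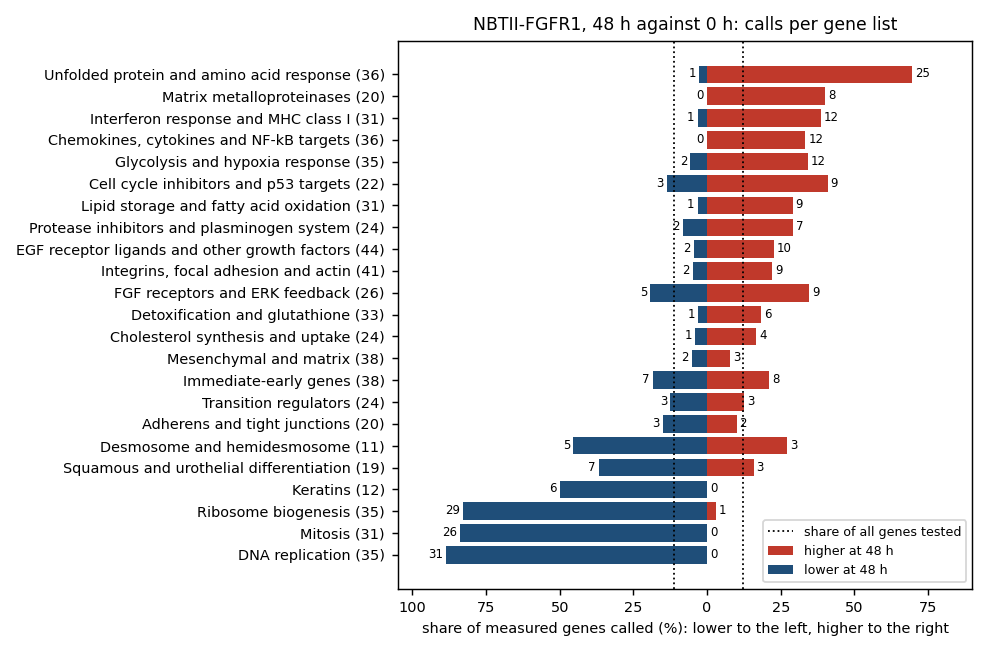
Share of the measured members of each gene list (rows, with the number measured in brackets) called higher (red, right) or lower (blue, left) at 48 h against 0 h in NBTII-FGFR1 cells, with the counts beside the bars; dotted lines mark the shares of all 10411 genes (12.3% higher, 11.4% lower). DNA replication, mitosis and ribosome biogenesis lie far to the left with 31, 26 and 29 lower, and the unfolded protein and amino acid response far to the right with 25 higher.

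Of 36 genes of the unfolded protein and amino acid response, 25 rose and 1 fell (median 0.89), with 21 and 0 without the library labelled 0 h replicate 1. Ddit3, the stress transcription factor CHOP, read 10.95 and 10.72 at 48 h, against 8.14 and 8.21 at 0 h and rose by 2.66 ± 0.37 (adjusted p = 0.000162). Sel1l, of ER-associated degradation, rose by 1.78 ± 0.18, the ER chaperone partners Sdf2l1 and Dnajc3 by 1.83 ± 0.21 and 0.97 ± 0.13. The 1 fall was the arginine transporter Slc7a1 (-0.58 ± 0.19), of whose 3 probe sets 1 did not pass (0.13 ± 0.19). Of 35 glycolysis and hypoxia genes, 12 rose and 2 fell, beside 12.3% of all genes higher and 11.4% lower. The rises were led by the enolase Eno2 (1.30 ± 0.11), the mitophagy receptors Bnip3 (1.39 ± 0.13) and Bnip3l (1.35 ± 0.17) and hexokinase 2, Hk2 (1.53 ± 0.19).

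The counts of the next lists stand beside 12.3% of all genes higher and 11.4% lower. Of 31 lipid genes, 9 rose and 1 fell. Beside Plin2, the triglyceride lipase Pnpla2 rose by 1.44 ± 0.17, the triglyceride synthase Dgat1 by 1.16 ± 0.17 and Hadhb, of fatty acid oxidation, by 0.88 ± 0.11. Of 24 cholesterol genes, 4 rose and 1 fell (1 rose without 48 h replicate 1 and 2 without 0 h replicate 2), not far from the 12.3% of all genes higher, with Ebp highest in rank of p (0.78 ± 0.15), followed by Tm7sf2 (1.35 ± 0.34), Sc5d (0.77 ± 0.19) and Insig2 (0.52 ± 0.15). Tm7sf2, Sc5d and Insig2 each lost their call without 48 h replicate 1 and without 1 of the 0 h arrays, which is labelled replicate 1 for Sc5d and replicate 2 for the others, and Insig2 also without 48 h replicate 2. A second Sc5d probe set did not pass (0.18 ± 0.16). Of 33 detoxification genes, 6 rose and 1 fell, also not far from that share. Hmox1, heme oxygenase, read 10.94 and 10.64 at 48 h, against 7.94 and 7.94 at 0 h and rose by 2.85 ± 0.27, and the aldo-keto reductase Akr1b8 read 13.37 and 13.25 at 48 h, against 11.05 and 11.21 at 0 h and rose by 2.18 ± 0.18. Of 31 interferon and MHC class I genes, 12 rose and 1 fell, and 9 and 0 without the library labelled 0 h replicate 1. Ifi27 rose by 1.66 ± 0.18, B2m, the light chain of MHC class I, by 1.32 ± 0.16, and the peptide transporter Tap2 by 0.93 ± 0.14.

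To place the differences within the course, 48 h was set against 24 h in NBTII-FGFR1, which uses no 0 h array but shares the 48 h arrays with the comparison above. Here 1518 probe sets passed (9.57%), 655 of them higher (4.13%) and 863 lower (5.44%), and 11.1% of genes passed. Il23a read 11.69 and 11.14 at 48 h, against 6.81 and 8.43 at 24 h, and rose by 3.80 ± 0.52 (adjusted p = 0.00063). Plin2 read 9.19 and 8.71 at 48 h, against 5.38 and 6.25 at 24 h, and rose by 3.14 ± 0.23. Abcb1a and Csf3 rose by 2.97 ± 0.27 and 2.80 ± 0.40, and Sema3b, a secreted semaphorin, by 2.37 ± 0.21. These 5 genes were the largest late rises among called genes whose arrays did not overlap, and the groups lay apart at 58.4% of all genes. The largest late falls were Amotl2 (-1.94 ± 0.30), the pseudokinase Trib2 (-1.82 ± 0.37), Krt5 (-1.80 ± 0.25), Eva1a (-1.72 ± 0.21) and the matrix protein Tgfbi (-1.56 ± 0.32). Trib2 lost its call without 48 h replicate 1 or 24 h replicate 1 (adjusted p up to 0.11), and Tgfbi without 48 h replicate 2 or 24 h replicate 1 (up to 0.117).

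Other leading genes did not pass this test. Mmp3 read 10.94 and 10.35 at 48 h, against 10.31 and 10.49 at 24 h (difference 0.25 ± 0.44, 95% interval -0.69 to 1.19, adjusted p = 0.849), and Mmp10 and Mmp13 differed by 2.04 ± 0.65 and 1.29 ± 0.52 (adjusted p = 0.0645 and 0.149). Plaur (0.14 ± 0.35), Klk6 (0.02 ± 0.32), Krt13 (-0.01 ± 0.29), Krtdap (0.19 ± 0.67) and Fos (0.26 ± 0.40) likewise did not pass. Of the lists, 31 DNA replication genes, 21 mitotic genes and 23 ribosome biogenesis genes were lower at 48 h than at 24 h, and 22 genes of the unfolded protein and amino acid response were higher, beside 4.67% of all genes higher and 6.39% lower. In the plots of the time course, Mcm7 read 10.35 and 10.58 at 48 h, against 11.37 and 11.33 at 24 h, beside 10.67 and 10.63 at 6 h and 11.48 and 11.48 at 0 h, so that 6 h was a low point before 48 h.

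**Figure D4:**
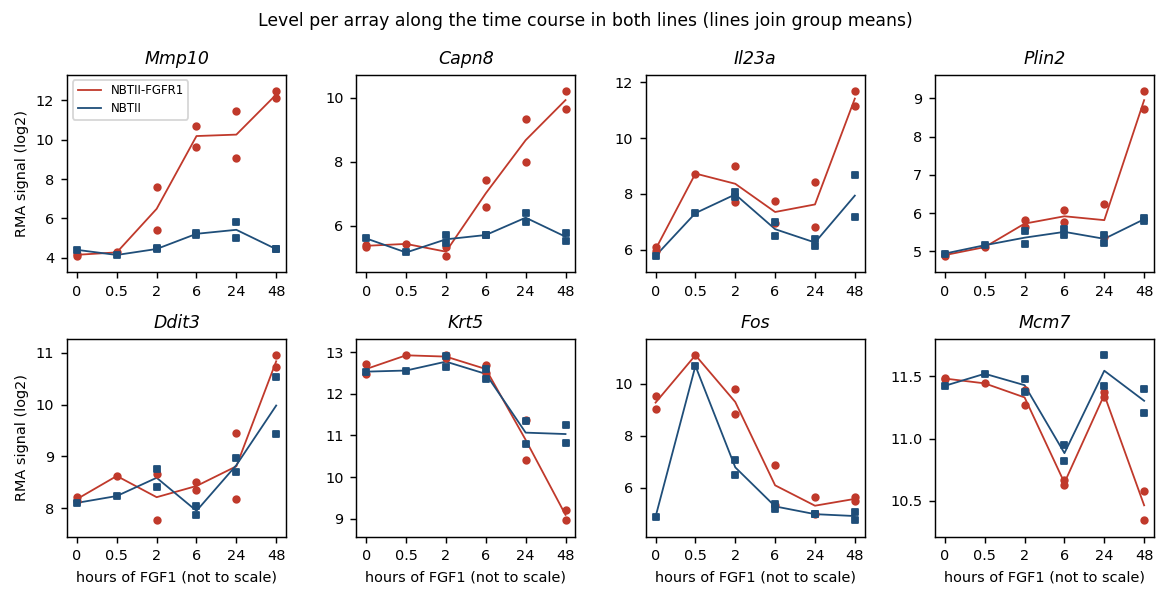
Normalised log2 signal (y axis) of 8 genes in every array along the hours of FGF1 (x axis, not to scale), in NBTII-FGFR1 (red circles) and NBTII (blue squares), with lines through the group means. In NBTII-FGFR1, Mmp10 and Capn8 rise in steps from 2 h or 6 h on. In the same line Il23a, Plin2 and Ddit3 are highest at 48 h, Krt5 is lowest at 48 h, and Mcm7 is low at 6 h and at 48 h. Fos is low from 6 h on in both lines, and in NBTII also at 0 h.

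The same time span was measured in untransfected NBTII. NBTII at 48 h differed from NBTII at 0 h, 2 arrays against 1, at 144 probe sets (0.908%), 92 higher (0.58%) and 52 lower (0.328%), and at 1.08% of genes, 0.682% higher and 0.394% lower. The lone array is assumed to vary like the other groups, and counts from 3 and 4 arrays are not set against each other. Mmp13 read 7.69 and 7.85 at 48 h, against 4.21 at 0 h, and rose by 3.55 ± 0.63. Plaur and Fosl1 also rose, by 2.32 ± 0.42 and 2.17 ± 0.23, and Id2 and Krt15 fell by 2.86 ± 0.57 and 2.80 ± 0.61, with Ghr, the growth hormone receptor gene, by 1.88 ± 0.41. Without either NBTII 48 h array Mmp13, Plaur, Id2, Krt15 and Ghr lost their calls, with adjusted p up to 0.107 for Plaur and 0.267 for Krt15, and with only the arrays compared Fosl1 missed the threshold (adjusted p = 0.0529). Mmp10 read 4.42 and 4.45 at 48 h, against 4.4 at 0 h, and did not pass (0.04 ± 0.80).

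Whether the difference from 0 h itself differed between the lines was tested by the line by time term, which passed at 180 probe sets (1.13%), 101 more positive in NBTII-FGFR1 (0.637%) and 79 more negative (0.498%), and at 1.39% of genes, 0.826% more positive and 0.567% more negative. The term was 8.12 ± 1.03 for Mmp10 (adjusted p = 0.00197), 6.34 ± 0.69 for Mmp3 (adjusted p = 0.00093) and 4.51 ± 0.54 for Capn8 (adjusted p = 0.00108). For Plin2 it was 3.15 ± 0.36 and for Tmsb4x 2.29 ± 0.22, where Tmsb4x had a 48 h minus 0 h difference of 1.56 ± 0.14 in NBTII-FGFR1 and -0.73 ± 0.17 in NBTII. Krt5 fell in both lines, by 3.51 ± 0.25 in NBTII-FGFR1 and 1.5 ± 0.31 in NBTII, and the term was -2.01 ± 0.40 (adjusted p = 0.0336). For Fos the term of -3.72 ± 0.63 (adjusted p = 0.0145) sets a 0 h level of 9.52 and 9.03 in NBTII-FGFR1 against 4.90 in NBTII. The calls for Krt5 and Fos were lost (adjusted p = 0.0711 and 0.058) without the library labelled 0 h replicate 1 of NBTII-FGFR1, and likewise without NBTII-FGFR1 48 h replicate 1 and without NBTII 48 h replicate 1, and that for Krt5 also without the second NBTII-FGFR1 array of either time. Of the lists, 4 DNA replication, 3 mitotic and 2 ribosome biogenesis genes had a more negative term in NBTII-FGFR1, beside 0.567% of all genes, and 0, 1 and 1 had one without that library. The median difference of the unfolded protein and amino acid genes was 0.89 in NBTII-FGFR1 and 0.79 in NBTII, and 0 of them had a more positive term in NBTII-FGFR1 and 1 a more negative one.

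**Figure D5:**
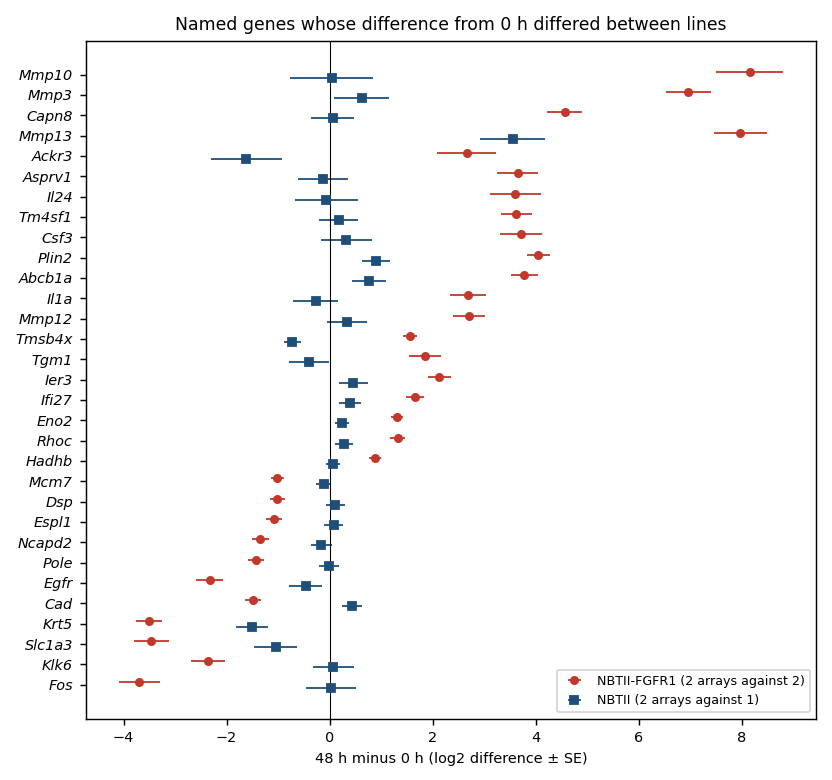
Difference between 48 h and 0 h (x axis, log2 ± SE) in NBTII-FGFR1 (red circles, 2 arrays against 2) and NBTII (blue squares, 2 arrays against 1) for the 31 named genes (rows) whose line by time term passed the test. Mmp10, Mmp3 and Capn8 stand at 8.15, 6.96 and 4.56 in NBTII-FGFR1 and at 0.04, 0.62 and 0.05 in NBTII, while Krt5 lies below 0 in both lines.

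At 48 h itself the lines were compared without any 0 h array, again sharing the NBTII-FGFR1 48 h arrays with the results above. Of all probe sets 1341 passed (8.45%), 753 higher in NBTII-FGFR1 (4.75%) and 588 lower (3.71%), and 9.89% of genes passed, 5.64% higher and 4.26% lower. Mmp10 read 12.48 and 12.12 in NBTII-FGFR1, against 4.42 and 4.45 in NBTII, a difference of 7.86 ± 0.65 (adjusted p = 1.14e-05). Mmp3, Mmp13, Capn8 and Prl8a7, a prolactin family gene, were higher in NBTII-FGFR1 by 6.12 ± 0.44, 4.53 ± 0.52, 4.28 ± 0.34 and 4.17 ± 0.65. Igfbp5, an IGF-binding protein, differed by -4.44 ± 0.92, Fxyd2, a sodium pump regulator, by -3.07 ± 0.65, Slc1a3 by -2.79 ± 0.34, Krt5 by -1.94 ± 0.25 and Crispld2 by -1.73 ± 0.34. Igfbp5, Fxyd2 and Crispld2 lost their calls without either NBTII-FGFR1 48 h array or without NBTII 48 h replicate 1 (adjusted p up to 0.138, 0.153 and 0.111). Of these, Igfbp5, Fxyd2 and Crispld2 did not pass between 48 h and 0 h in NBTII-FGFR1 (-1.51 ± 0.92, -0.52 ± 0.65 and -0.68 ± 0.34). At 48 h, 25 DNA replication genes and 23 mitotic genes were lower in NBTII-FGFR1 than in NBTII, beside 4.26% of all genes. Egr1 read 8.04 and 8.05 in NBTII-FGFR1, against 5.33 and 5.37 in NBTII, and was higher by 2.69 ± 0.45 although it was lower at 48 h than at 0 h in NBTII-FGFR1.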

How the data were processed

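Total RNA of each sample was measured on 1 Affymetrix array. RMA is the method named in the submitters' processing notes, without a version, and the deposited values are its log2 signals. No scanner files were analysed here, and the table has no detection calls. RMA signals compress differences near the bottom of the scale. Of 15923 probe sets, 57 controls were left out and 15866 were tested without a filter: 12783 carry 1 gene symbol in the platform annotation, 312 several and 2771 none. Groups came from the sample titles. A mean per group of line and time (12 groups) was estimated by lmFit and eBayes of limma 3.58.1, run in R 4.3.3 (9 residual and 5.68 prior degrees of freedom), with Benjamini-Hochberg adjustment over all 15866 within each of 5 comparisons and a threshold of 0.05. The pipeline was tested on simulated data.

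Named were the 12 genes with the largest rise and the 12 with the largest fall among called genes whose arrays did not overlap (5 and 5, or 3 and 3, for other comparisons), passing over LOC, RGD and clone symbols, up to 4 members per list with the smallest p, and 24 fixed genes. Where a list had few calls, the remaining ones were named after their values were seen, as were genes set beside their family (Mmp14, Mmp24, Adam10, Timp2, St14, Krt1, Krt4, Krt18, Evpl, Perp, Plec, Dsc2, Slc7a1, Sdc4). The members, the 26 gene lists and the comparisons were chosen with earlier results of these data known. Lists are described by counts and medians and were not tested as sets. Alternatives were leaving out low probe sets, a replicate block, only the arrays compared, only the NBTII-FGFR1 arrays, array weights, quantile normalization of the table, a robust eBayes fit with a trend, each array left out in turn and, added after seeing the data, leaving out the library labelled NBTII-FGFR1 0 h replicate 1 together with NBTII-FGFR1 2 h replicate 1. Python 3.11.15 was used for tables (pandas 2.3.3, numpy 2.4.6) and plots (matplotlib 3.10.9). Promoters are from RefSeq (GRCr8).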

Additional observations from a re-analysis of the deposited data

Results flagged for a closer look

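The 48 h minus 0 h difference was not the same in both lines, by the test of the difference itself (limma's line by time term), at 180 probe sets, 39 when the NBTII-FGFR1 library labelled 0 h replicate 1 is left out. NBTII at 0 h rests on 1 array. Among the named genes, 20 had a more positive change in NBTII-FGFR1. The term was 8.12 for Mmp10, 6.34 for Mmp3, 4.42 for Mmp13 and 2.36 for Mmp12, all metalloproteinases. It was 4.51 for the calpain Capn8, 4.27 for the chemokine receptor Ackr3, 3.78 for Asprv1, 2.25 for Tgm1 and 3.45 for Tm4sf1. Among cytokines it was 3.67 for Il24, 3.39 for Csf3 and 2.95 for Il1a. It was 3.15 for Plin2, 3.01 for Abcb1a, 2.29 for Tmsb4x, 1.04 for Rhoc, 1.66 for Ier3, 1.06 for Eno2, 1.26 for Ifi27 and 0.82 for Hadhb. Ackr3 differed in sign between the lines, at 2.66 ± 0.57 in NBTII-FGFR1 and -1.62 ± 0.70 in NBTII, although the NBTII difference did not pass (adjusted p = 0.364).

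The other 11 had a more negative change in NBTII-FGFR1. The term was -3.72 for Fos, -2.01 for Krt5, -2.41 for Slc1a3, -2.43 for Klk6, -1.86 for Egfr and -1.12 for Dsp. Among genes of growth and division it was -1.93 for Cad, -1.42 for Pole, -0.90 for Mcm7, -1.18 for Ncapd2 and -1.16 for Espl1. With that library left out, the adjusted p of the term was 0.0114 for Mmp10, 0.00621 for Mmp3, 0.00703 for Capn8 and 0.00677 for Plin2, but 0.0811 for Mmp13, 0.058 for Fos, 0.0711 for Krt5, 0.0934 for Klk6, 0.104 for Ackr3 and 0.127 for Slc1a3. Of the 31 genes, 9 were called without it and 22 were not. Slc1a3, Klk6 and Ackr3 each lost their call under 7 alternatives, among them without any 1 of the 4 NBTII-FGFR1 arrays of 48 h and 0 h.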

How the results depend on the processing

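Of 118 named genes called between 48 h and 0 h in NBTII-FGFR1, 101 were called under every alternative run for them (11 for 30 of the 134 named genes, which lie below the median level, and 12 for the others), 17 lost their call under at least 1 (10 of them without the library labelled 0 h replicate 1), and none turned its sign. The 3393 calls of this comparison were 1850 to 2474 with 1 array left out, lowest without 48 h replicate 1, and 2575 without both the library labelled 0 h replicate 1 and 2 h replicate 1. For 48 h against 24 h, the 1518 calls became 2777 with array weights and 356 to 1127 with 1 array left out, lowest without 48 h replicate 1. Between the lines at 48 h, 1341 became 2966 with only the arrays compared, 3091 with array weights and 252 to 637 with 1 array left out, lowest without NBTII-FGFR1 48 h replicate 1. For NBTII at 48 h against 0 h, 144 became 46 with only the arrays compared, 466 with array weights, 238 without those 2 libraries and 12 to 53 with 1 array left out, lowest without NBTII 48 h replicate 2. The line by time term's 180 became 1244 with only the arrays compared, 900 with array weights and 19 to 104 with 1 array left out, lowest without NBTII 48 h replicate 1. Deviations of same-numbered replicates correlated above 0.1 in 15 of 36 pairs of groups, among them all 6 pairs of NBTII (r = 0.11 to 0.23), but in 0 of the 15 pairs with NBTII-FGFR1 0 h or 48 h (r = -0.11 to 0.05), so the numbers were not taken to pair the samples. The replicate block gave 412 for the line by time term, and otherwise 3536, 1634, 1459 and 215 for the comparisons in the order above. The causes were not tested. Of 676 counts per list and alternative, 568 stayed within 1.5 times. Signals below the lower quartile carry no detection call, so 61 probe sets called higher from such 0 h levels and 91 called lower to such 48 h levels have only a bound on their difference.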
